A study of Ictalurus punctatus x Ictalurus furcatus and Ictalurus furcatus and Ictalurus punctatus with 8 samples.

Results

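The reciprocal hybrids between channel catfish (Ictalurus punctatus) and blue catfish (Ictalurus furcatus) were compared in liver: 2 livers of F1CB, the hybrid with a channel catfish mother and a blue catfish father, against 2 livers of F1BC, whose mother was a blue catfish and whose father was a channel catfish. The members were chosen by cross alone, with no measured value, and make up 4 of the 8 libraries of the series. The other 4 libraries are the parental species, 2 livers of channel catfish (PC) and 2 livers of blue catfish (PB), and their levels are given for each called or consistent gene described. All fish were 12 months old, were untreated, and were picked at random from their type. The types were reared in separate tanks, so the direction of the cross and the tank cannot be told apart. The p-values measure only the spread between the 2 fish of a type, pooled over all 4 types. They therefore rest on the parental livers as well as on the hybrid livers. The sources used here do not give the sex of the fish.

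Both hybrids inherit 1 nuclear genome from each species, so they differ in which species supplied the egg, with its stored RNA and its mitochondria, and the sperm. In crosses of this kind, differences between reciprocal hybrids can reflect maternal effects, mitochondrial inheritance or expression that depends on the parent of origin, and these are compared as the reciprocal effect of a cross. The liver makes the plasma proteins, sets blood glucose between meals, packages lipids and synthesizes bile acids, and much of its transcription follows feeding, hormones and time of day.

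The unit throughout is CPM, counts scaled to a common library total, and differences are log2 fold changes of CPM + 0.5, F1CB minus F1BC. Of 13420 genes tested with limma, 8070 (60.1%) had a higher mean log2 level in F1CB, with a median difference of 0.15 over all genes. Median-of-ratios scaling moved this median to -0.0041, so a difference of a gene or list is read against 0.15 and not against 0. The livers were alike in rank order, with a Spearman correlation across genes of 0.929 between the 2 F1CB livers, 0.941 between the 2 F1BC livers and 0.880 to 0.935 between a liver of F1CB and a liver of F1BC. Hepatocyte markers were abundant in every library. Their summed level was 196182 and 155040 CPM in F1CB livers, against 212698 and 242166 CPM in F1BC livers. Leukocyte and exocrine pancreas markers differed between the hybrid livers, and these values are given beside the results they touch. The list of mitochondrially encoded genes matched 0 of the genes tested.

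A gene was called where the limma adjusted p was under 0.05 and the log2 fold change exceeded 1.5 in either direction. Between the hybrids 20 genes were called, which is 0.149% of all genes tested: 9 were higher in F1CB (0.0671%) and 11 were higher in F1BC (0.082%). By comparison, 2122 genes (15.8%) were called between PC and PB. In the 20 called genes, the absolute log2 fold changes were 2.42 to 5.88, and the livers of the 2 hybrids did not overlap in any of the 20. The share of all genes tested whose hybrid livers did not overlap was 46.1%. Only foxa3 and ENSIPUG00000004359 remained called with each of the 8 libraries left out in turn. The number of called genes was 3 without replicate 2 of F1CB, 15 without its replicate 1, 5 without either replicate of F1BC, 30 without either replicate of PC, and 16 and 14 without replicates 1 and 2 of PB. All 20 remained in the called or the weaker class described next in each of these fits. A second, weaker class held 275 genes (2.05%) that were not called but had an unadjusted p under 0.01, an absolute log2 fold change over 0.5 and livers that did not overlap. These are named consistent differences below. Of them 178 (1.33%) were higher in F1CB and 97 (0.723%) were higher in F1BC, and with median-of-ratios scaling the split was 142 and 176. Their adjusted p from limma was 0.0506 to 0.452, so none of them passed the test across all genes. At an unadjusted p under 0.05 there were 1085 genes (8.08%), of which 670 were higher in F1CB (4.99%) and 415 in F1BC (3.09%).

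**Figure D1:**
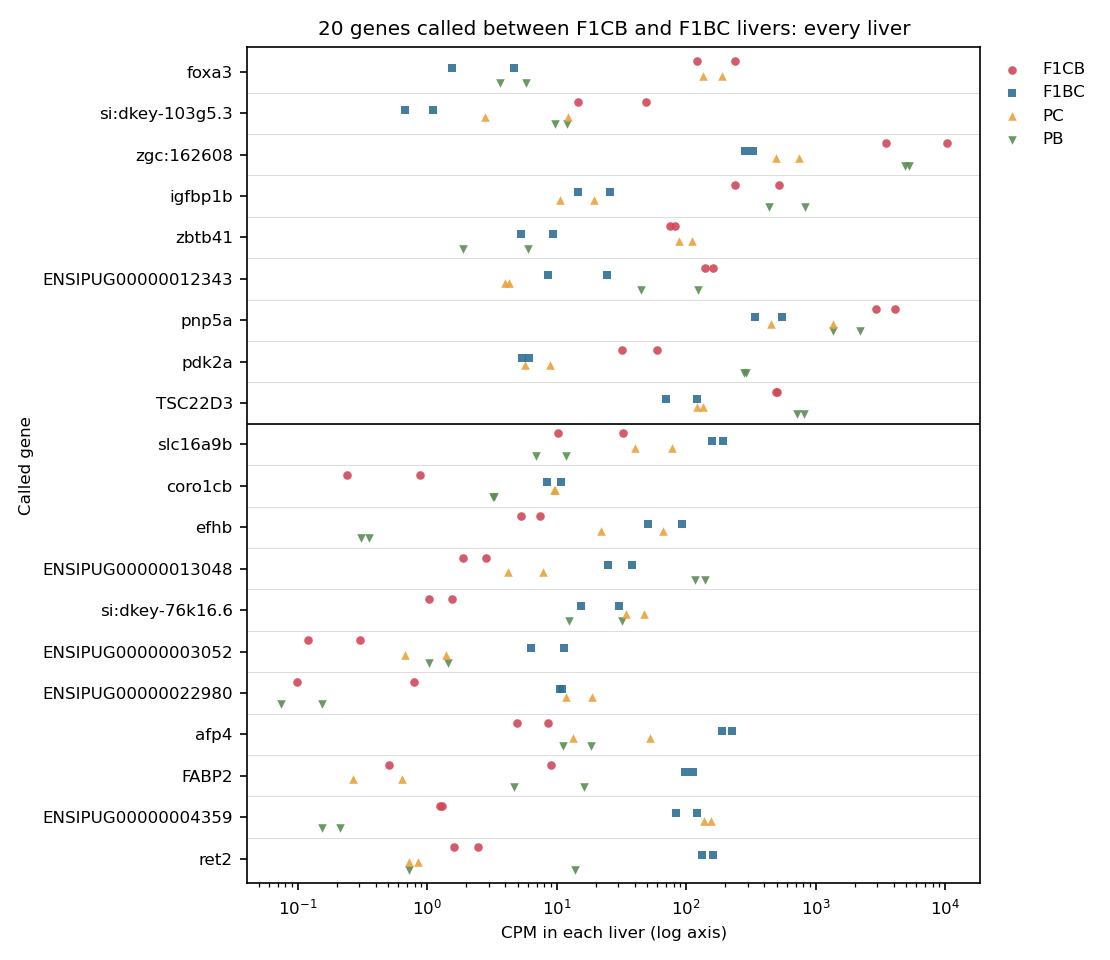
Level of the 20 called genes in every liver, in CPM on a log axis, with F1CB as circles, F1BC as squares, PC as upward triangles and PB as downward triangles (2 livers per type). The 9 genes above the black line were higher in F1CB and the 11 below it were higher in F1BC, and the livers of the 2 hybrids are apart in each.

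The parental levels place these differences. A hybrid difference with the sign of PC minus PB is counted as toward the maternal species, and one with the opposite sign as toward the paternal species. This compares signs alone and does not mean that either hybrid resembled that parent. In 4 of the 20 called genes both hybrid means lay between 0.8 times the lower and 1.2 times the higher parent. In ret2 and FABP2, counted as maternal, the F1BC livers exceeded all parental livers. Of the 20 called genes, 6 lay toward the maternal and 14 toward the paternal species, that is 30% toward the maternal. After division by transcript length, which left 9 called genes, the share was 55.6%. Among the consistent differences 111 of 275 (40.4%) lay toward the maternal species, close to the 44.4% over all genes tested and the 40.2% of the 2122 genes that differed between PC and PB. The parents were themselves called apart in 13 of the 20 called genes, of which 4 lay toward the mother and 9 toward the father. Opposite extremes also occurred. In 5 called genes and 55 consistent ones, 1 hybrid mean was over 1.2 times the higher parent and the other was under 0.8 times the lower parent. Among the genes that met neither rule, 159 had F1CB above and F1BC below the parents in this way, and 55 had the reverse. Picking genes by a large gap between the hybrids itself favours this arrangement, so these counts are a description.

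**Figure D2:**
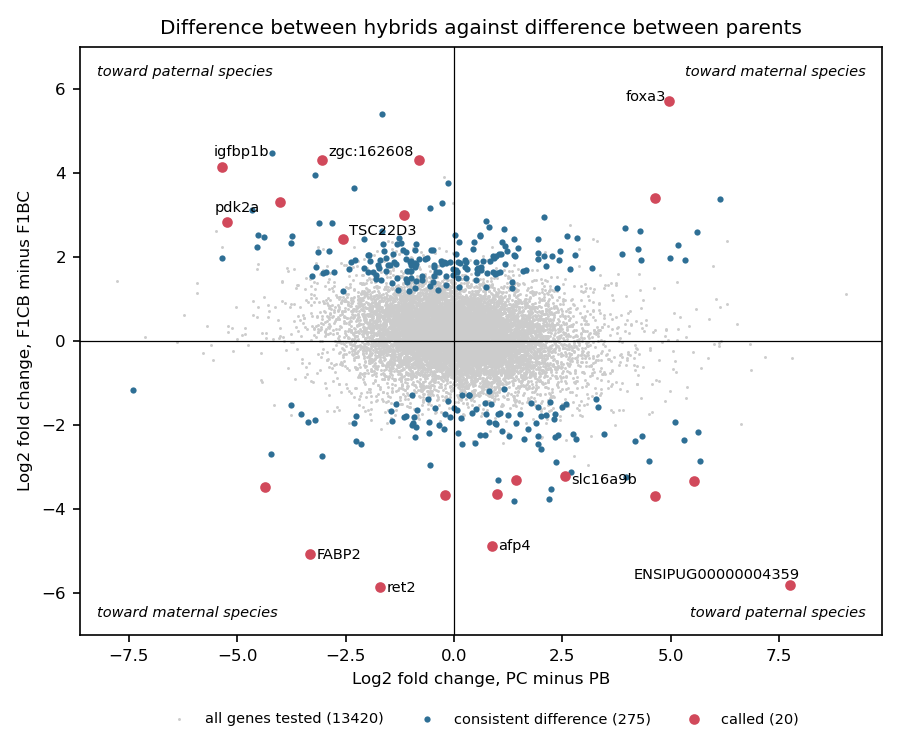
Log2 fold change between the hybrids (F1CB minus F1BC, vertical axis) against that between the parents (PC minus PB, horizontal axis) for all 13420 genes (grey), the 275 consistent differences (blue) and the 20 called genes (red). Called genes fall in all 4 quadrants, 6 in those toward the maternal species and 14 in those toward the paternal species.

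The gene with the largest positive difference encodes a liver transcription factor. The forkhead factor foxa3 (ENSIPUG00000001587), which opens chromatin at liver enhancers in mammals, had 122 and 238 CPM in F1CB livers, against 4.72 and 1.55 CPM in F1BC livers (log2 fold change 5.71 with a standard error of 0.53 and a limma adjusted p = 0.000837). Its parental levels were 134 and 189 CPM in PC livers and 5.78 and 3.65 CPM in PB livers, so that F1CB stood with channel catfish and F1BC with blue catfish, the species of their mothers. The gene zbtb41 (zinc finger and BTB domain containing 41) had the same arrangement, at 81.7 and 75.7 CPM in F1CB livers, against 9.29 and 5.31 CPM in F1BC livers (log2 fold change 3.39 with a standard error of 0.52 and a limma adjusted p = 0.025), with 111 and 88.3 CPM in PC livers and 1.89 and 6.05 CPM in PB livers. In foxa3 the range of each hybrid overlapped that of its maternal species, and in zbtb41 this held for F1BC, whereas the F1CB livers were slightly under those of PC.

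The list of liver transcription factors had no common direction, with 24 of 50 members higher in F1CB and a median difference of -0.09. Single members moved both ways. At an unadjusted limma p under 0.05, 6 were higher and 7 were lower in F1CB, against 4.99% and 3.09% of all genes. The CCAAT enhancer binding protein cebpa, which drives metabolic genes of the mammalian liver, was the gene nearest to the threshold among those higher in F1BC. It had 4.15 and 0.472 CPM in F1CB livers, against 23.2 and 36.8 CPM in F1BC livers, and 11.7 and 22.4 CPM in PC livers and 5.07 and 6.77 CPM in PB livers (log2 fold change -3.81, adjusted p = 0.0506 from limma). This difference was called or consistent in all 8 fits without 1 library. The orphan receptor nr0b2, a repressor of bile acid synthesis, had 22.6 and 12.7 CPM in F1CB livers, against 49.1 and 59.3 CPM in F1BC livers (log2 fold change -1.64), and 37.0 and 16.7 CPM in PC livers and 52.5 and 38.9 CPM in PB livers.

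Genes of the glucocorticoid and fasting response included more called members than any other list. The lists were chosen with earlier results of these data known, so this rank is a description. Glucocorticoids and falling insulin switch the liver from glucose use to glucose output, through the transcription of binding proteins, kinases and coactivators. Of 38 members of this list, 28 were higher in F1CB, against 60.1% of all genes. Of the members, 3 were called and 5 more were consistent, all 8 higher in F1CB. Over all genes tested, 0.149% were called and 2.05% were consistent. The list median was 0.59, against 0.15 over all genes. After median-of-ratios scaling it was 0.41. In all 8 genes the level of blue catfish exceeded that of channel catfish, so the sign of the hybrid difference lay toward the paternal species. The whole list leaned to blue catfish, with 12 of 38 members higher in PC and a median PC minus PB of -0.65. The parents were not called apart in ppargc1a, asns and ddit4. In ppargc1a, asns and sesn1 the F1CB mean was above that of PB and the F1BC mean under that of PC.

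The insulin-like growth factor binding protein igfbp1b (ENSIPUG00000012949), which holds growth factor in plasma and is induced by fasting and stress in fish, had 239.8 and 523 CPM in F1CB livers, against 25.8 and 14.6 CPM in F1BC livers (log2 fold change 4.15 with a standard error of 0.52 and a limma adjusted p = 0.00774). Its levels were 10.6 and 19.4 CPM in PC livers and 438 and 834 CPM in PB livers. TSC22D3, the glucocorticoid-induced leucine zipper, had 492 and 505 CPM in F1CB livers, against 122 and 70.2 CPM in F1BC livers (log2 fold change 2.42 with a standard error of 0.38 and a limma adjusted p = 0.0285). It had 122 and 136 CPM in PC livers and 722 and 814 CPM in PB livers, and the 2 F1CB livers were close to each other. The kinase pdk2a, which inactivates pyruvate dehydrogenase and so spares glucose carbon, had 31.9 and 59.4 CPM in F1CB livers, against 6.08 and 5.40 CPM in F1BC livers (log2 fold change 2.82 with a standard error of 0.44 and a limma adjusted p = 0.0285). Over the 8 fits that each omit 1 library, the adjusted p from limma was 0.00477 to 0.201 for igfbp1b, 0.0164 to 0.443 for TSC22D3 and 0.0164 to 0.547 for pdk2a. The F1CB level of pdk2a was far under that of blue catfish, at 5.66 and 8.92 CPM in PC livers and 290.1 and 281 CPM in PB livers, whereas the F1BC livers overlapped those of channel catfish.

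The 5 consistent members were higher in both F1CB livers. The insulin receptor docking protein irs2a had 130.2 and 274 CPM in F1CB livers, against 43.4 and 24.8 CPM in F1BC livers (log2 fold change 2.51, adjusted p = 0.0687 from limma), and 38.7 and 29.5 CPM in PC livers and 508 and 417 CPM in PB livers. The sestrin sesn1, a brake on the TORC1 growth pathway, had 914 and 3117 CPM in F1CB livers, against 325 and 56.4 CPM in F1BC livers, and 229 and 318 CPM in PC livers and 1022 and 1771 CPM in PB livers. Here the livers of each hybrid differed widely among themselves, but the F1CB livers remained above the F1BC livers. The coactivator ppargc1a, which raises gluconeogenic and mitochondrial genes, had 27.9 and 29.2 CPM in F1CB livers, against 8.38 and 7.85 CPM in F1BC livers, and 12.9 and 11.6 CPM in PC livers and 27.2 and 19.7 CPM in PB livers. The remaining pair, asns (asparagine synthetase) and ddit4 (a TORC1 inhibitor induced by stress), were picked with their values already known. The level of asns was 68.5 and 111 CPM in F1CB livers, against 25.1 and 37.3 CPM in F1BC livers, and 28.7 and 37.4 CPM in PC livers and 47.3 and 90.5 CPM in PB livers. That of ddit4 was 248 and 312 CPM in F1CB livers, against 148 and 96.7 CPM in F1BC livers, and 167 and 138 CPM in PC livers and 304 and 455 CPM in PB livers.

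Not every member was called or consistent, and some were lower in F1CB. The kinase pdk4, a standard fasting marker of mammals, had 83.5 and 49.0 CPM in F1CB livers, against 164 and 119.5 CPM in F1BC livers (log2 fold change -1.12, adjusted p = 0.642 from limma), lower in F1CB and not called. The gluconeogenic phosphatase g6pca.1 had 3874 and 5265 CPM in F1CB livers, against 3119 and 1388 CPM in F1BC livers, and pck2, which the table describes as the cytosolic type of phosphoenolpyruvate carboxykinase, had 1890.1 and 2178 CPM in F1CB livers, against 3097 and 3003 CPM in F1BC livers. The paralog igfbp1a had 386 and 589.7 CPM in F1CB livers, against 307 and 197 CPM in F1BC livers with 187 and 46.0 CPM in PC livers and 2151 and 1005 CPM in PB livers, and its difference between the hybrids of 0.95 was not called (adjusted p = 0.737 from limma). Thus pdk4 and pck2 were lower in F1CB, whereas g6pca.1 and igfbp1a were higher but met neither rule. These 4 genes were named after their values were seen, as list members that set the limits of the pattern. With limma, none of the 10 list members lower in F1CB reached an unadjusted p under 0.05, whereas 12 of the 28 higher ones did. Over all genes tested, 3.09% were lower and 4.99% were higher in F1CB at that p.

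**Figure D3:**
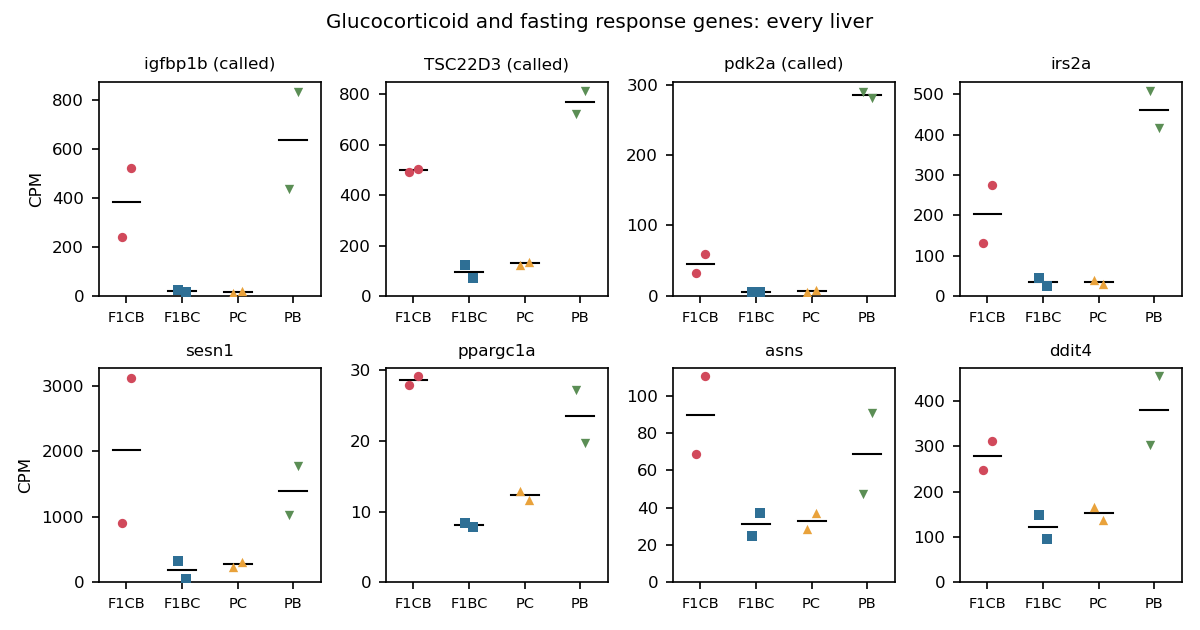
CPM in every liver of the 8 called or consistent members of the glucocorticoid and fasting response list (linear axes from 0, horizontal bars are means of 2 livers, symbols as labelled on the horizontal axis). In each gene both F1CB livers exceed both F1BC livers, and both PB livers exceed both PC livers.

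Consistent differences were also found in a pair of genes of growth factor signalling and in a hormone receptor. The adaptor gab1, which links receptor tyrosine kinases to their targets, had 76.8 and 131 CPM in F1CB livers, against 22.6 and 15 CPM in F1BC livers (log2 fold change 2.41), and 15.9 and 42.9 CPM in PC livers and 115 and 108 CPM in PB livers. The feedback inhibitor of epidermal growth factor receptors ERRFI1 had 160.0 and 226 CPM in F1CB livers, against 41.9 and 48.0 CPM in F1BC livers (log2 fold change 2.07), and 55.9 and 77.9 CPM in PC livers and 132 and 235 CPM in PB livers. Both were thus higher in the F1CB livers and in blue catfish. The glucagon receptor gcgrb had 120.1 and 133 CPM in F1CB livers, against 59.4 and 33.1 CPM in F1BC livers (log2 fold change 1.5), with parents that overlapped at 36.3 and 87.7 CPM in PC livers and 51.2 and 55.3 CPM in PB livers. Of the 45 genes of the insulin, IGF and growth hormone axis, 26 were higher in F1CB, and the list median of 0.12 was near that of all genes.

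Carriers of lipids and retinol were among the genes that led in F1BC. The 28 genes of retinoid binding and metabolism had no common direction, with 14 higher in F1CB and a median of 0.04. The intracellular retinol carrier ret2 (ENSIPUG00000008698, described as retinol-binding protein 2) had 2.45 and 1.61 CPM in F1CB livers, against 161 and 133 CPM in F1BC livers (log2 fold change -5.88 with a standard error of 0.85 and a limma adjusted p = 0.0244). Both parental species had far less, 0.728 and 0.851 CPM in PC livers and 13.9 and 0.719 CPM in PB livers. The intestinal type fatty acid-binding protein FABP2 had 9.01 and 0.510 CPM in F1CB livers, against 98.3 and 112 CPM in F1BC livers (log2 fold change -5.09 with a standard error of 0.86 and a limma adjusted p = 0.0461), and 0.644 and 0.266 CPM in PC livers and 16.4 and 4.69 CPM in PB livers. In both genes the F1BC livers were above all 6 other livers. The F1CB livers of FABP2 differed 9.41-fold from each other on the CPM + 0.5 scale, the widest gap between livers of a hybrid among the called genes.

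The gene afp4 (ENSIPUG00000006556), which the table describes as apolipoprotein A2, a protein of high-density lipoprotein, had 8.55 and 4.97 CPM in F1CB livers, against 227 and 189 CPM in F1BC livers (log2 fold change -4.88 with a standard error of 0.59 and a limma adjusted p = 0.00649). All parental livers lay between the hybrids, with 13.4 and 52.6 CPM in PC livers and 18.5 and 11.1 CPM in PB livers. Apolipoprotein B, apoba, the backbone of very low-density lipoprotein, differed in the other direction with 156 and 259 CPM in F1CB livers, against 22.7 and 103 CPM in F1BC livers (log2 fold change 2.04), and 111 and 66.1 CPM in PC livers and 382 and 289 CPM in PB livers. The liver fatty acid-binding protein fabp1 had 392 and 272 CPM in F1CB livers, against 733 and 881 CPM in F1BC livers (log2 fold change -1.30), and 623 and 611 CPM in PC livers and 567 and 413 CPM in PB livers. Over the 8 libraries, the level of fabp1 was 0.993 to 0.997 times that of smyd1b, so these genes may share reads and count as a single observation. Of 39 lipid-binding and lipoprotein genes, 17 were higher in F1CB and the median difference was -0.20, against 0.15 over all genes.

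Transthyretin (ttr), the thyroid hormone carrier of plasma, was higher in F1BC, at 46.4 and 27.6 CPM in F1CB livers, against 165 and 219.9 CPM in F1BC livers (log2 fold change -2.40, adjusted p = 0.145 from limma), and 48.9 and 15.8 CPM in PC livers and 122 and 152 CPM in PB livers. The blue catfish livers resembled those of F1BC, its maternal species. The level of its partner si:ch73-74h11.1 stayed at 0.352 to 0.420 of that of ttr in every library, so their reads may be shared. The gene thrsp, described as a mid1-interacting protein, a regulator of fatty acid synthesis, had 4613 and 2511 CPM in F1CB livers, against 15822 and 11493 CPM in F1BC livers, and 6418 and 7073 CPM in PC livers and 4441 and 2651 CPM in PB livers (log2 fold change -1.99). It was above all parental livers in F1BC. The level of thrsp was 0.880 to 0.925 times that of nduc2 in every library, and their reads may be shared as well.

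Glycine N-acyltransferases, which couple glycine to acyl-CoA in the mitochondria of liver and kidney, were lower in F1CB as a family. All 6 tested genes of the family were lower in F1CB, with a median difference of -1.90. In all 6 the hybrid livers did not overlap, which held for 46.1% of all genes tested. The family was listed after its values had been seen, so its direction is a description. The called member was ENSIPUG00000008122, with 1.04 and 1.56 CPM in F1CB livers, against 30.6 and 15.5 CPM in F1BC livers (log2 fold change -3.65 with a standard error of 0.54 and a limma adjusted p = 0.0244), and 47.4 and 34.4 CPM in PC livers and 32.0 and 12.5 CPM in PB livers. It was the F1CB livers that stood apart, under all other livers. The most abundant member, ENSIPUG00000017857, had 46.0 and 45.5 CPM in F1CB livers, against 205 and 168 CPM in F1BC livers (log2 fold change -2.01), and 112 and 82.5 CPM in PC livers and 170.0 and 86.8 CPM in PB livers. The gene glyat had 2.75 and 4.35 CPM in F1CB livers, against 20.5 and 17.4 CPM in F1BC livers (log2 fold change -2.29), and 6.41 and 9.18 CPM in PC livers and 21.5 and 10.1 CPM in PB livers. The fourth, ENSIPUG00000018921, had 1.25 and 1.94 CPM in F1CB livers, against 5.91 and 7.50 CPM in F1BC livers, and 0.532 and 1.66 CPM in PC livers and 9.52 and 4.58 CPM in PB livers. Sequence-similar members of a family can share reads, and 4 of the 6 carry the same symbol (si:dkey-76k16.6), so these rows may not be independent.

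Of the immune genes, a scavenger receptor and a class II histocompatibility chain were called, both lower in F1CB. The scavenger receptor ENSIPUG00000013048, described as the macrophage receptor with collagenous structure, had 2.86 and 1.88 CPM in F1CB livers, against 25.1 and 38.4 CPM in F1BC livers (log2 fold change -3.48 with a standard error of 0.46 and a limma adjusted p = 0.0134), and 4.23 and 7.91 CPM in PC livers and 117 and 140.3 CPM in PB livers. The class II histocompatibility chain ENSIPUG00000003052 (A-U alpha type) had 0.302 and 0.121 CPM in F1CB livers, against 6.35 and 11.3 CPM in F1BC livers (log2 fold change -3.67 with a standard error of 0.56 and a limma adjusted p = 0.025). It had 0.672 and 1.40 CPM in PC livers and 1.45 and 1.03 CPM in PB livers, so the F1BC livers exceeded all others. A class II beta chain, ENSIPUG00000003209 (I-E type), had 5.22 and 11.6 CPM in F1CB livers, against 59.3 and 87.4 CPM in F1BC livers (log2 fold change -3.12, adjusted p = 0.0847 from limma), and 102 and 111 CPM in PC livers and 8.07 and 30.5 CPM in PB livers.

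Further immune genes had consistent differences. The class I chain ENSIPUG00000022867 had 0.784 and 1.60 CPM in F1CB livers, against 6.31 and 6.78 CPM in F1BC livers, and 10.6 and 5.30 CPM in PC livers and 2.72 and 1.35 CPM in PB livers. The class I chain ENSIPUG00000002392 had 11.1 and 6.20 CPM in F1CB livers, against 30.2 and 27.2 CPM in F1BC livers, and 92.9 and 48.4 CPM in PC livers and 36.9 and 68.2 CPM in PB livers. In both the F1CB livers were the lower, while the 11 class I chains as a group had a median of 0.03. The B7 family homolog ENSIPUG00000009749 (CD276) had 19.6 and 16.9 CPM in F1CB livers, against 69.6 and 102 CPM in F1BC livers, and 109 and 62.2 CPM in PC livers and 1.51 and 0.890 CPM in PB livers. The Src family kinase LYN had 0.168 and 0.302 CPM in F1CB livers, against 4.01 and 2.97 CPM in F1BC livers, and 1.85 and 2.51 CPM in PC livers and 1.36 and 1.42 CPM in PB livers. Here the F1CB livers were under all 6 other livers. The lysosomal protease ENSIPUG00000002269, a legumain-like gene, had 0.258 and 0.120 CPM in F1CB livers, against 2.93 and 7.94 CPM in F1BC livers, and 0.868 and 1.73 CPM in PC livers and 2.66 and 1.56 CPM in PB livers. A GTPase of the IMAP family, ENSIPUG00000007208, had 0.977 and 1.52 CPM in F1CB livers, against 6.25 and 4.70 CPM in F1BC livers, and 1.54 and 1.52 CPM in PC livers and 0.462 and 0.252 CPM in PB livers. The F1BC livers were above all others in both genes. The B cell receptor component cd79a had 4.92 and 4.28 CPM in F1CB livers, against 11.3 and 16.1 CPM in F1BC livers, and 44.9 and 22.1 CPM in PC livers and 6.15 and 6.59 CPM in PB livers. The gene laptm5, by its symbol a lysosomal protein of blood cells, is described as lysosomal-associated transmembrane protein 4A-like, so its identity is unsure. It had 4.97 and 3.63 CPM in F1CB livers, against 11.3 and 18.7 CPM in F1BC livers, and 9.07 and 19.2 CPM in PC livers and 8.22 and 19.1 CPM in PB livers. In both, the F1CB livers were under all 6 other livers.

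Across the 18 leukocyte markers, all 18 were lower in F1CB, with a median difference of -1.17. No marker was called, 2 were consistent (cd79a and laptm5, whose description differs from its symbol) and 8 had an unadjusted limma p under 0.05. Over all genes tested, 2.05% were consistent and 3.09% were lower in F1CB at that p. The summed level of the list was 474 and 336 CPM in F1CB livers, against 791 and 1195 CPM in F1BC livers, with 911 and 1448 CPM in PC livers and 806 and 1642 CPM in PB livers. The F1CB livers were thus under all 6 other livers. The markers named here and those of the pancreas below were picked with their values already known. The most abundant were cd74a and cd74b, the invariant chains of class II, with 304 and 186 CPM in F1CB livers, against 495 and 742 CPM in F1BC livers for cd74a and 81.6 and 83.3 CPM in F1CB livers, against 155 and 227 CPM in F1BC livers for cd74b. The general leukocyte marker ptprc had 7.25 and 6.99 CPM in F1CB livers, against 14.9 and 18.4 CPM in F1BC livers, and macrophage marker MPEG1 had 1.40 and 1.76 CPM in F1CB livers, against 0.965 and 3.02 CPM in F1BC livers, without separation. In bulk liver, fewer leukocytes and less RNA per leukocyte cannot be told apart, and the part of the leukocytes in the differences of the histocompatibility and scavenger genes was not tested. Of 25 antigen presentation genes 6 were higher in F1CB, with a median of -0.54, whereas the 56 interferon response genes had a median of -0.14 with 1 consistent member, trim25, at 42.7 and 103 CPM in F1CB livers, against 24.7 and 5.0 CPM in F1BC livers, and 43.1 and 66.8 CPM in PC livers and 47.1 and 26.6 CPM in PB livers.

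Of the other called genes higher in F1CB, the most abundant was zgc:162608 (ENSIPUG00000012088), an uncharacterized gene, with 3518 and 10339.9 CPM in F1CB livers, against 283 and 327 CPM in F1BC livers (log2 fold change 4.31 with a standard error of 0.47 and a limma adjusted p = 0.00308). It had 744 and 498 CPM in PC livers and 5238 and 4867 CPM in PB livers, so that F1CB resembled blue catfish and F1BC was under both parents. Without replicate 2 of F1CB its adjusted p from limma was 0.0538. The purine nucleoside phosphorylase gene pnp5a, of the salvage of purine bases, had 2914 and 4093 CPM in F1CB livers, against 545 and 341 CPM in F1BC livers (log2 fold change 3.00 with a standard error of 0.51 and a limma adjusted p = 0.0461), with 449 and 1352 CPM in PC livers and 1366 and 2198 CPM in PB livers. Both F1CB livers were above all other livers, and both F1BC livers were under 3 of the 4 parental livers. The zona pellucida-like domain gene si:dkey-103g5.3 had 14.6 and 49.2 CPM in F1CB livers, against 0.672 and 1.11 CPM in F1BC livers (log2 fold change 4.32 with a standard error of 0.69 and a limma adjusted p = 0.0308), and 12.2 and 2.79 CPM in PC livers and 9.71 and 12.1 CPM in PB livers.

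Zona pellucida proteins form the coat of the egg, and in many fish part of that coat is made in the liver under estrogen. The gene zp2l1 and the gene zpax1, an egg coat gene by its symbol but described as uncharacterized, had consistent differences in the same direction. The called si:dkey-103g5.3 is described only by a zona pellucida-like domain, so its place in the egg coat is unsure. The level of zp2l1 was 9.61 and 6.65 CPM in F1CB livers, against 0.736 and 1.04 CPM in F1BC livers, with 14.5 and 5.89 CPM in PC livers, and the gene was listed near 0 in both PB livers. The level of zpax1 was 21.1 and 26.3 CPM in F1CB livers, against 1.11 and 0.222 CPM in F1BC livers (log2 fold change 4.48), with 1.88 and 0.821 CPM in PC livers and 6.37 and 155 CPM in PB livers. Its PB livers spanned a wide range. All 4 zona pellucida domain genes tested were higher in F1CB (median 2.1), a list made after the values were seen that does not hold zpax1. The other members of the egg yolk and estrogen list were neither called nor consistent. The estrogen receptor esr2a was lower in F1CB (log2 fold change -1.69). The differences of esr2, esr1 and the egg coat gene zp3f.2 were 0.59, 0.26 and 0.28, against a median of 0.15 over all genes. Since the sex of the fish is not given, its part in these differences was not tested.

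Of the called genes, 3 had neither a symbol nor a description. The gene ENSIPUG00000004359 had the smallest adjusted p of all, at 1.30 and 1.26 CPM in F1CB livers, against 83.3 and 121 CPM in F1BC livers (log2 fold change -5.83 with a standard error of 0.43 and a limma adjusted p = 0.000111), and 138 and 156 CPM in PC livers and 0.155 and 0.212 CPM in PB livers. F1BC was thus nearer to channel catfish and F1CB nearer to blue catfish, in each case the species of the father. The gene ENSIPUG00000022980 had the same order at a lower level, with 0.0997 and 0.788 CPM in F1CB livers, against 10.7 and 11.1 CPM in F1BC livers (log2 fold change -3.69 with a standard error of 0.54 and a limma adjusted p = 0.0244), and 11.8 and 18.8 CPM in PC livers and 0.154 and 0.0740 CPM in PB livers. The gene ENSIPUG00000012343 was higher in F1CB, with 160.3 and 140.2 CPM in F1CB livers, against 8.61 and 24.6 CPM in F1BC livers (log2 fold change 3.31 with a standard error of 0.57 and a limma adjusted p = 0.0479), and 4.28 and 4.0 CPM in PC livers and 124 and 44.6 CPM in PB livers, again toward the father of each hybrid.

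The remaining 3 called genes were higher in F1BC. The carrier slc16a9b, of a family that moves monocarboxylates and, in mammals, carnitine and creatine, had 32.3 and 10.3 CPM in F1CB livers, against 194 and 157 CPM in F1BC livers (log2 fold change -3.22 with a standard error of 0.55 and a limma adjusted p = 0.0481), and 39.9 and 77.7 CPM in PC livers and 11.7 and 6.99 CPM in PB livers. The EF-hand gene efhb had 7.44 and 5.28 CPM in F1CB livers, against 92.9 and 50.7 CPM in F1BC livers (log2 fold change -3.35 with a standard error of 0.56 and a limma adjusted p = 0.045), and 66.4 and 21.9 CPM in PC livers and 0.310 and 0.354 CPM in PB livers, with F1BC overlapping channel catfish and F1CB between the parents. The actin-binding coronin coro1cb had 0.880 and 0.239 CPM in F1CB livers, against 10.9 and 8.43 CPM in F1BC livers (log2 fold change -3.32 with a standard error of 0.50 and a limma adjusted p = 0.025), and 9.69 and 9.62 CPM in PC livers and 3.25 and 3.30 CPM in PB livers. Among 239 solute carriers, slc16a9b was the 1 called gene, 10 were consistent, and 142 were higher in F1CB. Over all genes tested, 0.149% were called, 2.05% were consistent and 60.1% were higher in F1CB.

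Of the bile acid genes none was called, and the consistent ones included main enzymes of the synthesis. The rate-limiting enzyme cyp7a1 had 14.6 and 11.8 CPM in F1CB livers, against 77.5 and 441 CPM in F1BC livers (log2 fold change -3.77, adjusted p = 0.245 from limma), and 88.3 and 53.2 CPM in PC livers and 45.7 and 4.44 CPM in PB livers. The F1BC livers differed widely from each other, but both were above the F1CB livers. The sterol 12-alpha-hydroxylase CYP8B1 (ENSIPUG00000010416), which sets the share of cholic acid, had 7.55 and 4.93 CPM in F1CB livers, against 17.2 and 27.7 CPM in F1BC livers, and 0.532 and 1.33 CPM in PC livers and 11.9 and 19.6 CPM in PB livers. Both enzymes lost the consistent class without replicate 2 of F1CB and without replicate 2 of F1BC. The receptor fgfr4, through which the gut signal FGF19 lowers cyp7a1 in mammals, was higher in F1CB, at 33.1 and 50.9 CPM in F1CB livers, against 1.55 and 10.1 CPM in F1BC livers (log2 fold change 3.16), and 5.15 and 22.6 CPM in PC livers and 17.6 and 15.2 CPM in PB livers. Of 20 bile acid genes, 15 were lower in F1CB, 4 of them consistent, with a list median of -0.31. Over all genes tested, 0.723% were consistent and lower in F1CB. Among the 4 was nr0b2, the repressor of bile acid synthesis described above (log2 fold change -1.64). Sterol regulation gave 2 consistent genes: insig1, which retains the sterol sensor in the endoplasmic reticulum, had 14.2 and 48.9 CPM in F1CB livers, against 3.23 and 4.75 CPM in F1BC livers, and 18.1 and 8.22 CPM in PC livers and 65.1 and 24.1 CPM in PB livers. The low-density lipoprotein receptor ldlrb had 0.934 and 1.68 CPM in F1CB livers, against 3.10 and 12.6 CPM in F1BC livers, and 5.82 and 2.63 CPM in PC livers and 6.74 and 9.50 CPM in PB livers. The 32 genes of cholesterol synthesis and uptake had a median of 0.16, equal to that of all genes within 0.01.

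Amino acid metabolism had consistent genes in both directions. Ornithine aminotransferase, oat, was higher in F1BC at 22.1 and 31.4 CPM in F1CB livers, against 228 and 165 CPM in F1BC livers (log2 fold change -2.85, adjusted p = 0.119 from limma), and 412 and 209 CPM in PC livers and 6.59 and 23.6 CPM in PB livers. Also higher in F1BC was csad, cysteine sulfinic acid decarboxylase of taurine synthesis, which was picked with its values known, at 48.8 and 45.3 CPM in F1CB livers, against 104 and 181 CPM in F1BC livers (log2 fold change -1.53), and 16.7 and 32.0 CPM in PC livers and 234 and 442 CPM in PB livers. The other 3 consistent members, enzymes of serine, betaine and sulfur amino acids, were higher in F1CB. The serine-pyruvate aminotransferase agxtb had 1389.9 and 2772 CPM in F1CB livers, against 489.9 and 818 CPM in F1BC livers, and 446 and 351 CPM in PC livers and 1713 and 1453 CPM in PB livers. The betaine-homocysteine methyltransferase bhmt had 916 and 1267 CPM in F1CB livers, against 369 and 293 CPM in F1BC livers, and 169.5 and 531 CPM in PC livers and 1944 and 1332 CPM in PB livers. Cystathionine beta-synthase, cbsa, had 539 and 691 CPM in F1CB livers, against 319 and 158 CPM in F1BC livers, and 280.2 and 333 CPM in PC livers and 628 and 413 CPM in PB livers. The hybrid difference lay toward the paternal species in oat, agxtb, bhmt and cbsa and toward the maternal species in csad. The list of 69 genes had a median of 0.03.

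Clock genes also divided. The repressors bhlhe41 and bhlhe40 were lower in F1CB, and higher in PC than in PB. The level of bhlhe41 was 13.1 and 7.53 CPM in F1CB livers, against 76.2 and 33.3 CPM in F1BC livers, and 99.1 and 45.4 CPM in PC livers and 9.06 and 18.6 CPM in PB livers. The level of bhlhe40 was 198 and 79.9 CPM in F1CB livers, against 391 and 329 CPM in F1BC livers, and 573 and 360.2 CPM in PC livers and 88.4 and 63.0 CPM in PB livers. The output factor hlfb had 21.3 and 14.0 CPM in F1CB livers, against 144 and 58.6 CPM in F1BC livers, and 247 and 95.4 CPM in PC livers and 19.9 and 3.02 CPM in PB livers. The activator arntl1a, the fish ortholog of BMAL1, was higher in F1CB, at 72.0 and 78.9 CPM in F1CB livers, against 30.2 and 12 CPM in F1BC livers (log2 fold change 1.95), and 72.2 and 130.2 CPM in PC livers and 24.8 and 24.8 CPM in PB livers. The level of arntl1a was 1.02 to 1.24 times that of btbd10a in every library, and reads of this pair may be shared. The hour at which each liver was taken is not known here, and its part was not tested.

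Among detoxification genes, a cytochrome P450 of the 3A family, cyp3a65 (ENSIPUG00000012514), had 106 and 75.7 CPM in F1CB livers, against 348 and 272 CPM in F1BC livers, and 224 and 381 CPM in PC livers and 61.7 and 72.9 CPM in PB livers. The vitamin D 24-hydroxylase cyp24a1 was higher in F1CB, with 1871 and 2887 CPM in F1CB livers, against 1134 and 426 CPM in F1BC livers, and 305 and 737 CPM in PC livers and 1995 and 2029 CPM in PB livers. The glutathione transferase GSTP1 had 285 and 199 CPM in F1CB livers, against 504 and 671 CPM in F1BC livers, and 332 and 475 CPM in PC livers and 297 and 414 CPM in PB livers. Glucose handling held 3 consistent genes that were higher in F1CB, among them the glycolytic enzymes pfkla, a phosphofructokinase, and tpi1, triosephosphate isomerase. The level of pfkla was 38.9 and 24.3 CPM in F1CB livers, against 10.5 and 5.86 CPM in F1BC livers, and 10.9 and 19.1 CPM in PC livers and 5.38 and 14.6 CPM in PB livers. The level of tpi1 was 361 and 275 CPM in F1CB livers, against 144 and 118 CPM in F1BC livers, and 125 and 240.1 CPM in PC livers and 146 and 174 CPM in PB livers. In both, the F1CB livers were above all 6 other livers. The glucose carrier slc2a1b was lower in F1CB, at 21.0 and 11.2 CPM in F1CB livers, against 92.3 and 70.5 CPM in F1BC livers, with 41.1 and 274 CPM in PC livers and 2.16 and 2.23 CPM in PB livers.

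Plasma proteins of defence had differences in both directions. The F1CB livers were above the F1BC livers in the chemotaxin lect2l, a secreted liver protein, which had 3229.9 and 4033 CPM in F1CB livers, against 1274 and 805 CPM in F1BC livers (log2 fold change 1.83, adjusted p = 0.135 from limma), and 1488 and 1824 CPM in PC livers and 4897 and 3559 CPM in PB livers. The terminal complement components c7b and c6 were both above all 6 other livers in F1CB. The level of c7b was 887 and 1004 CPM in F1CB livers, against 422 and 245 CPM in F1BC livers, and 312 and 422 CPM in PC livers and 395 and 435 CPM in PB livers. The level of c6 was 842 and 1054 CPM in F1CB livers, against 475 and 343 CPM in F1BC livers, and 415 and 564 CPM in PC livers and 541 and 732 CPM in PB livers. Complement c4 was lower in F1CB, at 51.9 and 43.9 CPM in F1CB livers, against 132 and 158 CPM in F1BC livers, and 163 and 189 CPM in PC livers and 32.0 and 63.4 CPM in PB livers. The 28 complement genes as a whole had a median of -0.45, and 20 of them were lower in F1CB. The interleukin-6 receptor il6r (ENSIPUG00000004323) had 139 and 248 CPM in F1CB livers, against 70.6 and 56.5 CPM in F1BC livers, and 26.9 and 25.5 CPM in PC livers and 274 and 239 CPM in PB livers. The antimicrobial peptide leap2 had 1.02 and 1.30 CPM in F1CB livers, against 3.67 and 35.8 CPM in F1BC livers, and 10.4 and 5.59 CPM in PC livers and 3.02 and 0.222 CPM in PB livers. None of the 29 coagulation genes was called or consistent.

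Other leading consistent genes higher in F1CB had varied functions. The boophilin-like protease inhibitor ENSIPUG00000021723 had 9.32 and 2.53 CPM in F1CB livers, against 0.0430 and 0.0154 CPM in F1BC livers, and 49.5 and 54.8 CPM in PC livers and 0.308 and 0.181 CPM in PB livers, so that the F1CB livers lay toward channel catfish (log2 fold change 3.37, adjusted p = 0.0506 from limma). The phosphatidate phosphatase lpin2 had 38.6 and 66.3 CPM in F1CB livers, against 9.99 and 9.02 CPM in F1BC livers, and 77.3 and 35.2 CPM in PC livers and 42.9 and 33.2 CPM in PB livers. The bromodomain gene ENSIPUG00000014799 (described as bromodomain adjacent to zinc finger domain 2B) had 96.7 and 166 CPM in F1CB livers, against 31.4 and 24.9 CPM in F1BC livers, and 39.1 and 60.7 CPM in PC livers and 68.7 and 72.7 CPM in PB livers. A sialyltransferase gene, ENSIPUG00000004538, had 18.9 and 11.9 CPM in F1CB livers, against 1.57 and 0.726 CPM in F1BC livers, and 1.34 and 3.62 CPM in PC livers and 5.44 and 1.36 CPM in PB livers. In both of these genes the F1CB livers were above all parental livers. The metallopeptidase mmp21 had 11.3 and 6.08 CPM in F1CB livers, against 0.908 and 0.840 CPM in F1BC livers, and 9.04 and 22.0 CPM in PC livers and 0.586 and 0.323 CPM in PB livers. The gene nudcd2 had 32.5 and 29.5 CPM in F1CB livers, against 6.12 and 8.16 CPM in F1BC livers, and 15.4 and 20.4 CPM in PC livers and 13.6 and 21.4 CPM in PB livers, with F1CB above and F1BC under all parental livers. Of the leading genes higher in F1BC, the F-box gene fbxo45 had 3.02 and 6.53 CPM in F1CB livers, against 30.4 and 23.8 CPM in F1BC livers, and 3.11 and 4.03 CPM in PC livers and 4.48 and 2.06 CPM in PB livers, with F1BC above all other livers.

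Of 59 genes that slow growth or start autophagy, none was called and 6 were consistent, all 6 higher in F1CB. This list was made after the values were seen. Of these 6, sesn1 and ddit4 also belong to the fasting list and were already counted there. Over all genes tested, 1.33% were consistent and higher in F1CB. At an unadjusted limma p under 0.05, 7 of the 59 were higher in F1CB and 3 were lower (foxo3a, sqstm1 and CASTOR1). The shares over all genes were 4.99% and 3.09%. The level of klhl24a was 96.1 and 112 CPM in F1CB livers, against 39.1 and 8.15 CPM in F1BC livers, and 36.9 and 58.6 CPM in PC livers and 36.7 and 25.5 CPM in PB livers. The mitophagy receptor bnip3 had 211 and 481 CPM in F1CB livers, against 135 and 45.9 CPM in F1BC livers, and 228 and 195 CPM in PC livers and 76.7 and 80.7 CPM in PB livers. The level of tp53inp1 was 256 and 442 CPM in F1CB livers, against 117 and 32.1 CPM in F1BC livers, and 117 and 124 CPM in PC livers and 649 and 130.1 CPM in PB livers. In these 3 genes the lowest hybrid liver was replicate 2 of F1BC. The list median of 0.26 was not far from that of all genes.

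Genes of the endoplasmic reticulum were mostly higher in F1CB without called members. Of 66 chaperone and secretion genes 59 (89.4%) were higher in F1CB, against 60.1% of all genes, with a median of 0.53 and 2 consistent members. These were the oligosaccharyltransferase subunits stt3a and rpn2. Over all genes tested, 2.05% were consistent. The level of stt3a was 94.5 and 145 CPM in F1CB livers, against 37.2 and 45.1 CPM in F1BC livers, and 30.7 and 41.6 CPM in PC livers and 96.2 and 82.8 CPM in PB livers. The level of rpn2 was 64.3 and 120.4 CPM in F1CB livers, against 29.9 and 41.9 CPM in F1BC livers, and 35.4 and 42.0 CPM in PC livers and 62.5 and 52.0 CPM in PB livers. In both, the F1CB livers lay above those of F1BC and of channel catfish. N-glycan assembly, a list made after the values were seen, held 3 further consistent genes higher in F1CB. Of these, pmm1 had 47.1 and 55.2 CPM in F1CB livers, against 22.5 and 7.60 CPM in F1BC livers, and 7.42 and 20.6 CPM in PC livers and 74.6 and 51.8 CPM in PB livers. The gene dpagt1 had 9.59 and 15.4 CPM in F1CB livers, against 2.98 and 3.58 CPM in F1BC livers, and 14.9 and 4.56 CPM in PC livers and 9.21 and 14.6 CPM in PB livers. The carrier slc35b4 had 5.15 and 10.1 CPM in F1CB livers, against 1.99 and 1.77 CPM in F1BC livers, and 5.40 and 6.03 CPM in PC livers and 3.96 and 8.47 CPM in PB livers.

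Ribosome biogenesis had a median of 0.57, with 72 of 79 genes higher in F1CB and none called or consistent. The median of this list rested on a single liver. Its median deviation from the mean over the 8 livers was -0.45 and 0.95 in F1CB livers, against -0.49 and -0.33 in F1BC livers, and without replicate 2 of F1CB the list median was -0.08. The same liver set the ER list, whose median was 0.20 without it and 1.02 without the other F1CB liver. With all livers, the list medians were 0.43 for heat shock proteins, 0.37 for mitochondrial ribosomal proteins and 0.37 for translation factors. They were 0.34 for splicing factors and 0.29 for the proteasome. Without replicate 2 of F1CB the medians of these lists were 0.08 to 0.18, smaller but still above the 0.04 of all genes.

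**Figure D4:**
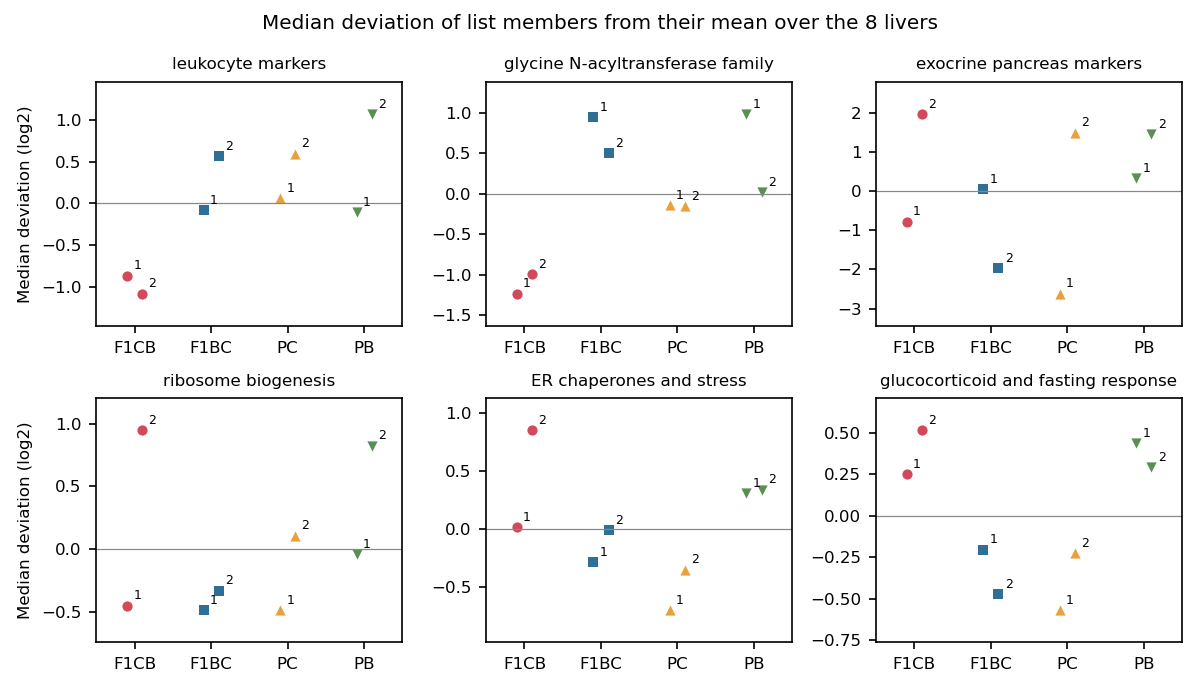
Median over list members of the log2 deviation from each gene's mean over the 8 livers, for 6 lists, with the replicate number beside each point and types ordered F1CB, F1BC, PC, PB. Both F1CB livers are lowest for leukocyte markers and glycine N-acyltransferases, whereas for ribosome biogenesis replicate 2 of F1CB and replicate 2 of PB are high and replicate 1 of F1CB is not.

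Markers of exocrine pancreas, which in many bony fish follows vessels into or near the liver, varied between livers of the same type. The median deviation of the 13 markers was -0.78 and 1.98 in F1CB livers, against 0.07 and -1.97 in F1BC livers, with -2.62 and 1.5 in PC livers. Of the 13 markers 12 had a positive difference (median 1.54) and none was called or consistent. The gene cela1.3, an elastase by its symbol but described as a transmembrane serine protease, had 94.5 and 607 CPM in F1CB livers, against 117 and 21.7 CPM in F1BC livers. Colipase CLPS had 8.60 and 48.2 CPM in F1CB livers, against 8.24 and 2.53 CPM in F1BC livers. The part of pancreatic RNA in differences that rest on replicate 2 of F1CB was not tested. The 14 red blood cell markers had a median of -0.44 and 1 unadjusted p under 0.05, and the 16 hepatocyte markers had a median of -0.11.

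**Figure D5:**
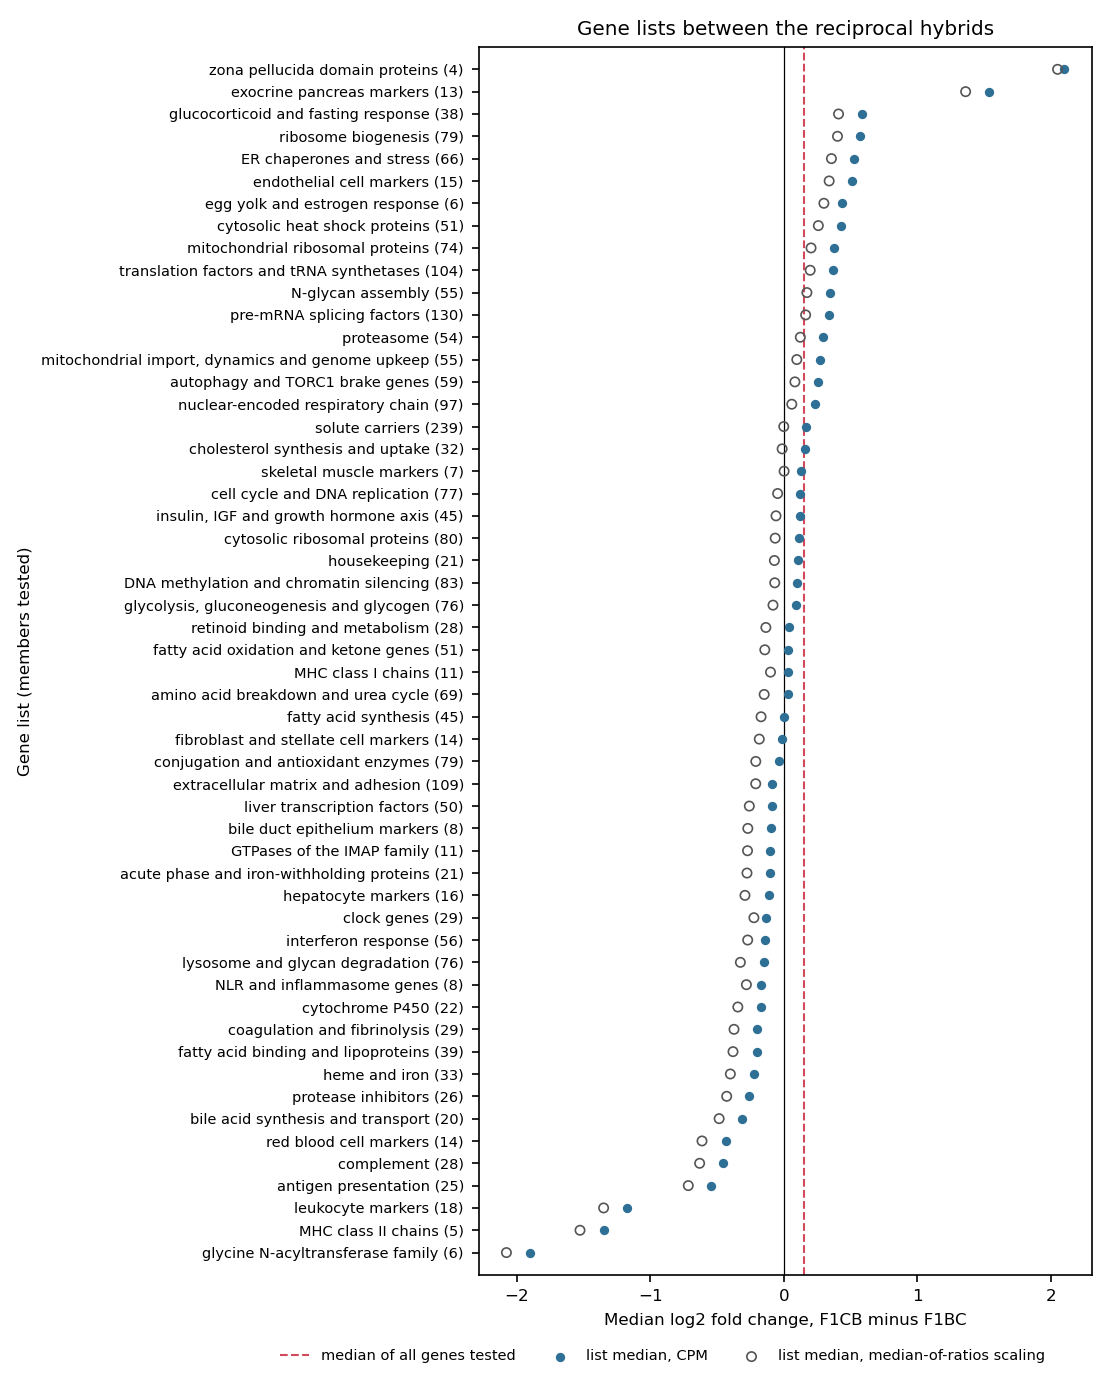
Median log2 fold change, F1CB minus F1BC, of the members of each of 54 gene lists (number of members tested in parentheses), from CPM (filled) and after median-of-ratios scaling (open), with the median of all genes tested as a dashed line at 0.15. The lists of glycine N-acyltransferases, class I and class II chains, IMAP GTPases, zona pellucida proteins, autophagy and N-glycan assembly were made after the values were seen, so their place is no result. Of the others, which were chosen with earlier results of these data known, leukocyte markers are lowest and exocrine pancreas markers highest.

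Some gene lists held no gene that met either rule, many of them lists of cell type markers or of RNA and protein synthesis. Of the 54 lists, 21 held no called or consistent member. Among them were the 51 genes of fatty acid oxidation and ketone synthesis (median 0.03, no unadjusted p under 0.05), the 80 cytosolic ribosomal proteins (median 0.11, and -0.06 after median-of-ratios scaling), the 76 lysosomal genes (median -0.15) and the 33 genes of heme and iron (median -0.22). At an unadjusted limma p under 0.05, 5 heme and iron genes and 3 lysosomal genes were lower in F1CB. Higher in F1CB were 2 lysosomal genes and 2 ribosomal protein genes. Over all genes tested, 3.09% were lower and 4.99% were higher. With 2 livers per hybrid, the smallest called difference was 2.42 on the log2 scale, and smaller differences in these lists may have gone uncalled.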

How the data were processed

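Liver RNA was sequenced from 2 fish of each type (F1CB, F1BC, PC and PB), 8 libraries in all. The authors selected polyadenylated RNA, trimmed paired reads with Trimmomatic, aligned them with TopHat 2.1.1 against the genome of channel catfish, counted them on gene models with BedTools 2.29.0 and tested the counts with edgeR. The genome build and the use of strand in counting are not given in the sources used here. Reads of both hybrids were mapped to the genome of channel catfish alone, which could lower the measured levels of blue catfish alleles, and this was not tested. The authors named the deposited values RPKM, but the values behave as CPM, with library sums of 996838 to 998652 and a median difference of -0.0089 from the authors' average log2 value per gene, against -1.68 after division by transcript length. The deposited log2 column served only for this check. Whole reads could not be recovered, so depth is unknown and count tests were not run.

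The 13420 genes of 13444 whose mean exceeded 1 CPM in any type were fitted with limma 3.58.1 in R on log2(CPM + 0.5), with an intensity trend, all 8 libraries and no covariate. Benjamini-Hochberg adjustment covered all genes fitted. The design had assumed RPKM, and the test was the same. The code was tested on simulated data. Standard errors and fold changes come from this fit, in which the contrast of the hybrids and that of the parents share no library. The pseudocount makes fold changes of low genes smaller.

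The text names every called gene, the 12 consistent genes per direction with the smallest unadjusted p, and up to 4 called or consistent genes per list, and says where others were chosen later. The members and lists were chosen with earlier results of these data known. From 48 lists matched by symbol and 7 added later, 182 entries of unrelated genes were removed by name.

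Alternatives were pseudocounts of 0.1 and 1, no filter or one at 5 CPM, median-of-ratios scaling, quantile normalization, division by length, the 4 hybrid libraries alone, no intensity trend, each threshold alone, a replicate block, and each library left out. No sequence is shown, because no reference was used here.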

Additional observations from a re-analysis of the deposited data

How the results depend on the processing

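None of the 20 called genes and 79 consistent genes named by the rule changed direction under any alternative. Their hybrid livers do not overlap, so most alternatives, such as leaving out a library, could not reverse them. Only median-of-ratios scaling and quantile normalization could have done so. In the alternatives that left out no single library, 6 of the 20 called genes kept their call throughout, and the others were called or consistent. With median-of-ratios scaling, the named consistent genes apoba, bhmt, cbsa, c6, cyp24a1, gcgrb, hdac5, fbln5, tpi1, rpn2 and dpagt1 met neither rule. All of these were higher in F1CB. The counts of called genes moved most. Higher in F1CB and higher in F1BC there were 4 and 5 called genes after division by transcript length, 18 and 21 in the fit of the 4 hybrid libraries alone, 3 and 7 without the intensity trend, and 326 and 216 with the fold change threshold alone. After division by length 55.6% of the called genes lay toward the maternal species. Median-of-ratios scaling put the median difference of all genes at -0.0041, against 0.15 from CPM, and the lists of cholesterol synthesis, amino acid breakdown, fatty acid oxidation, ribosomal proteins, class I chains and the insulin axis then had medians under 0. The consistent differences higher in F1BC numbered 176 with median-of-ratios scaling, 168 with quantile normalization (141 higher in F1CB) and 193 in the fit of the hybrids alone, where 310 were higher in F1CB.

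With 1 library left out in turn, called genes higher in F1CB numbered 2 to 15 and those higher in F1BC 1 to 15, and consistent ones 45 to 258 and 45 to 136. The share toward the maternal species was 20 to 40% of called and 28.3 to 48.7% of consistent genes, and the Spearman correlation of the hybrid means, 0.931 with all libraries, was 0.900 to 0.937. Besides foxa3 and ENSIPUG00000004359, zgc:162608 lost its call in 1 of these 8 fits and the other called genes in 2 or more. The cause was not tested.

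Replicate numbers were not taken to pair the livers: the deviations of same-numbered F1CB and F1BC livers had a correlation of -0.010 across genes, and over the 6 pairs of types the correlations were -0.010 to 0.144. With a replicate block 27 genes were called, all 20 above among them, and with the block and median-of-ratios scaling 25 were called and 226 consistent differences were higher in F1BC. Depth is unknown, and 2 livers per type limit every comparison.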

Other observations

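Further consistent differences fell in cell division, transport and matrix genes, and none of them passed the test across all genes. The mitotic cyclin ccnb2 had 9.61 and 7.30 CPM in F1CB livers, against 2.33 and 0.472 CPM in F1BC livers, with 3.86 and 7.25 CPM in PC livers and 0.590 and 1.62 CPM in PB livers. The D-type cyclin ccnd2b, of the entry into the cell cycle, had 1.89 and 6.67 CPM in F1CB livers, against 0.612 and 0.644 CPM in F1BC livers, with 4.54 and 5.18 CPM in PC livers and 3.37 and 5.99 CPM in PB livers. In both cyclins the F1CB livers were above the F1BC livers, and for ccnd2b the F1BC livers were also under all parental livers.

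Of the carriers, the mitochondrial SLC25A34 had 219 and 197 CPM in F1CB livers, against 89.8 and 43.4 CPM in F1BC livers, with 66.3 and 151 CPM in PC livers and 11.9 and 9.18 CPM in PB livers, and was above all parental livers in F1CB. The carrier slc26a10 had 3.89 and 11.8 CPM in F1CB livers, against 0.821 and 1.09 CPM in F1BC livers, with 2.72 and 7.80 CPM in PC livers and 9.15 and 14.4 CPM in PB livers. In the other direction, SLC5A10, of the family of sodium-coupled sugar carriers, had 0.465 and 0.949 CPM in F1CB livers, against 4.29 and 3.86 CPM in F1BC livers, with 2.30 and 2.59 CPM in PC livers and 0.925 and 0.325 CPM in PB livers, and was above all other livers in F1BC.

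Among the remaining genes, the class IIa histone deacetylase hdac5 had 18 and 22.3 CPM in F1CB livers, against 7.58 and 6.46 CPM in F1BC livers, with 4.93 and 3.45 CPM in PC livers and 18.5 and 11.1 CPM in PB livers, so that the F1CB livers lay toward blue catfish. The assembly factor of succinate dehydrogenase, sdhaf2, had 26.4 and 40.0 CPM in F1CB livers, against 12.5 and 10.0 CPM in F1BC livers, with 23.1 and 21.3 CPM in PC livers and 23 and 14.4 CPM in PB livers. Fibulin 5 (fbln5), a protein of elastic fibres, had 128 and 179 CPM in F1CB livers, against 62.1 and 65.1 CPM in F1BC livers, with 116 and 77.4 CPM in PC livers and 169 and 183 CPM in PB livers. The metalloproteinase mmp20b had 1.91 and 3.47 CPM in F1CB livers, against 0.531 and 0.281 CPM in F1BC livers, with 1.68 and 2.62 CPM in PC livers and 0.213 and 0.00366 CPM in PB livers. All 4 were higher in F1CB. Higher in F1BC were ENSIPUG00000002416 and ENSIPUG00000013240, which have no description. The level of ENSIPUG00000002416 was 8.37 and 10.6 CPM in F1CB livers, against 107 and 83.1 CPM in F1BC livers, with 215 and 81.1 CPM in PC livers and 3.96 and 15.4 CPM in PB livers, and that of ENSIPUG00000013240 was 0.0438 and 0.00167 CPM in F1CB livers, against 1.70 and 4.73 CPM in F1BC livers, with 0.0560 and 0.0739 CPM in PC livers and 11.5 and 8.83 CPM in PB livers. In both the F1BC livers lay toward a different parent, channel catfish for the first and blue catfish for the second.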
